A study of Mus musculus with 30 samples.

Results

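H3K27ac and H3K18ac, acetylation of lysines on the tail of histone H3, were compared across the genome of wild-type mouse B cells by which merged peak regions carried one mark, the other or both. The 2 H3K27ac and 2 H3K18ac peak lists of these cells were merged into 33793 regions, each a run of overlapping peaks. A region was called H3K27ac-only when both H3K27ac lists and neither H3K18ac list had a peak in it (8003 regions, 23.7%), H3K18ac-only in the reverse case (668 regions, 1.98%) and shared when all 4 lists did (13725 regions, 40.6%). The other 11397 regions had a mixed pattern, most often a peak in 1 list alone.

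The series has 30 samples from C57BL/6 mice, and 12 of its peak lists were used here. The B cells were B220+ splenocytes isolated by FACS from mice that were CBPfl/fl:Mx-Cre-, that is, with loxP-flanked alleles of Crebbp (the gene for CBP) and no Cre, called wild type by the labels. From the same cells came 2 H3K56ac lists and 1 list for CBP itself. Other lists used were 1 of H3K27ac from wild-type Lin- IL7ra+ bone marrow progenitors, and 2 each of H3K27ac and H3K18ac from lymphoproliferative disease (LPD) of Crebbp-/- mice (CBPfl/fl:Mx-Cre+). The Mx-Cre transgene is driven by an interferon-inducible promoter and is not limited to B cells. The LPD samples were unsorted bulk splenocytes, so genotype, disease and sorting cannot be told apart there. Ages were not given, and nothing says whether the replicate lists came from separate mice, so p-values measure only the spread between these lists. The antibodies were ab4729 for H3K27ac and ab1191 for H3K18ac.

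Both marks are laid down chiefly by the paired acetyltransferases CBP and p300 and lie at active promoters and enhancers. H3K27ac is the usual mark for telling active enhancers from inactive ones, and long runs of it cover the genes that define a cell type. H3K56ac, in the core of the histone, is also attributed to CBP and p300 in mammals.

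The promoters below are examples of sequence under each class, picked by region width and not as typical of the class. They are from the widest regions of each class that held the whole 250 bases before an annotated start of a protein-coding gene: 1 shared, 2 H3K27ac-only and 3 H3K18ac-only. A gene can have several annotated starts, and the stretch printed for Irf5 lies inside the gene span, which begins at position 29526130. Sequences run 5′ to 3′ on the strand of the gene, were taken from RefSeq (GRCm38.p6, the assembly called mm10), and have CpG dinucleotides in capitals.
H2-Aa (chr17:34287824-34288073, minus strand): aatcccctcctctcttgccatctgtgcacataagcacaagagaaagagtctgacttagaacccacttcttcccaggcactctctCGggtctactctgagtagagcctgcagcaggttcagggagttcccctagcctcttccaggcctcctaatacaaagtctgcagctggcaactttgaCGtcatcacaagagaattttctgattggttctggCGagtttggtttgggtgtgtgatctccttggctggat
Irf5 (chr6:29526375-29526624, plus strand): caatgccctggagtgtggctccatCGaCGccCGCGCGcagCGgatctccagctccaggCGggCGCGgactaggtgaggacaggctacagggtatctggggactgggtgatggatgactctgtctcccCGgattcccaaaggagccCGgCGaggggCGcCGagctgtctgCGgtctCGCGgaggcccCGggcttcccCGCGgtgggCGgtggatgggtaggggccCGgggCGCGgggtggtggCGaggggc
Tspan32 (chr7:143004796-143005045, plus strand): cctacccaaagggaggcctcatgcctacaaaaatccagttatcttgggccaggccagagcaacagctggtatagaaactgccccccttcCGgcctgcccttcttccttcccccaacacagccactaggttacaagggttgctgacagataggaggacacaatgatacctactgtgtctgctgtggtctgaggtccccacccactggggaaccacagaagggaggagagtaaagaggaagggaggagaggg
1700016H13Rik (chr5:103655725-103655974, minus strand): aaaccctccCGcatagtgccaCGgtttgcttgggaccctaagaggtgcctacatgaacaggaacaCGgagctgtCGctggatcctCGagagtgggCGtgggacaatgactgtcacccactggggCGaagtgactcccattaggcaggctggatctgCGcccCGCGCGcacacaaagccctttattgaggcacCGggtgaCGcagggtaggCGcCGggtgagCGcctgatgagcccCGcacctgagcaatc
Kbtbd12 (chr6:88627430-88627679, minus strand): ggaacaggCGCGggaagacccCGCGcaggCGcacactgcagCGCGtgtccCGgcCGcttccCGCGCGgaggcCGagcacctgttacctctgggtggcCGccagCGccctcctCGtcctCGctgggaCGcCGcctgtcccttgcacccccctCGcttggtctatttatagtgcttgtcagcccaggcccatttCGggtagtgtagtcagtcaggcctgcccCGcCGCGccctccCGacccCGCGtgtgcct
Kcnk10 (chr12:98578214-98578463, minus strand): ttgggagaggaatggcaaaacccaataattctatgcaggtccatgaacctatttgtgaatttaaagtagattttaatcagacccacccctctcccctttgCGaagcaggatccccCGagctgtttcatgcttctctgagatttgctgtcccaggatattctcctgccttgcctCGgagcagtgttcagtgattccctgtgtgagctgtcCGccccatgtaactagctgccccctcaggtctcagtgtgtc
H2-Aa encodes the alpha chain of an MHC class II molecule. Its printed stretch holds 3 CpGs and the cAMP response element (CRE) letters TGACGTCA, and it lay in a shared region with 24.8 and 25 kb of H3K27ac and 23.0 and 22.5 kb of H3K18ac peaks. Irf5, a transcription factor of Toll-like receptor signalling, had 25 CpGs in this stretch and 4.74 and 4.91 kb of H3K27ac, with no H3K18ac peak in that region. The gene as a whole had 1.49 and 1.44 kb of H3K18ac, in a shared region next to it. Tspan32, a tetraspanin of blood cells, had 1 CpG and 2.66 and 2.93 kb of H3K27ac, likewise with no H3K18ac. Of the H3K18ac-only promoters, that of the uncharacterised gene 1700016H13Rik had 17 CpGs and that of Kbtbd12 had 27, while that of Kcnk10, a potassium channel, had 4. CpG-rich and CpG-poor promoters thus occurred among these examples of both single-mark classes.

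The B cell labels were checked against marker genes through the peaks of both marks. Of 7 B cell markers, 6 (Cd79a, Ms4a1, Pax5, Ebf1 and Cd22 among them) had peaks in all 4 lists, and the summed peak length of the 7 was 108 and 105 kb in the H3K27ac lists and 26.5 and 30.6 kb in the H3K18ac lists. The remaining marker, Cd79b, had H3K27ac peaks alone. The sums were not adjusted for gene length and rest mostly on long genes. Ebf1, with a span of 390 kb, had 52.5 and 50.9 kb of H3K27ac, and Pax5, with 186 kb, 23.4 kb in each list. Of 7 T and NK cell markers, 2 (Cd3d and Lck) had peaks in all 4 lists, with sums of 9.69 and 9.59 kb of H3K27ac and 5.96 and 6.48 kb of H3K18ac, and Cd3e, Cd3g, Bcl11b, Thy1 and Ncr1 had none. Myeloid markers (Csf3r and Itgam, 2 of 7) summed to 3.32 and 3.55 kb of H3K27ac, and erythroid and megakaryocyte markers (Klf1, 1 of 7) to 0.797 and 0.742 kb. The files hold positions only, so read depth and enrichment are unknown, and absence of a peak means that none was called. In pooled cells, a mark in fewer cells and a weaker mark per cell cannot be told apart.

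H3K27ac peaks were more numerous, wider and covered about 1.96 times the length of H3K18ac peaks. The H3K27ac lists held 30523 and 30198 peaks over 27.1 and 26.4 Mb, and the H3K18ac lists 22485 and 23456 peaks over 13.3 and 14.0 Mb. Neither pair of values overlapped the other. Median peak width was 581 and 571 bp for H3K27ac and 437 and 435.5 bp for H3K18ac. On the log2 scale the difference of H3K27ac from H3K18ac was 0.40 for peak number, 0.97 for covered length and 0.40 for median width. H3K18ac peaks lay more often within 1 kb of either end of a protein-coding gene, at 43.1% and 42.4% against 37.0% and 37.3%. They also more often overlapped a peak of both H3K56ac lists, at 57.9% and 55.6% against 40.7% and 41.4%, and H3K56ac was not used to sort the regions. The differences were -5.65 percentage points for gene ends and -15.8 percentage points for H3K56ac. These moved with the number of peaks compared: with each list shortened to its 22485 widest peaks, the differences were -0.93 and -4.52 percentage points, and that of median width was 0.81. Among peaks of at least 400 bp the difference in peak number was 0.68. In each of these 5 comparisons the lists of the marks did not overlap, but 2 lists against 2 cannot give less than p = 0.333 in a two-sided exact permutation test, which each comparison gave, also after Benjamini-Hochberg adjustment over the 5.

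**Figure D1:**
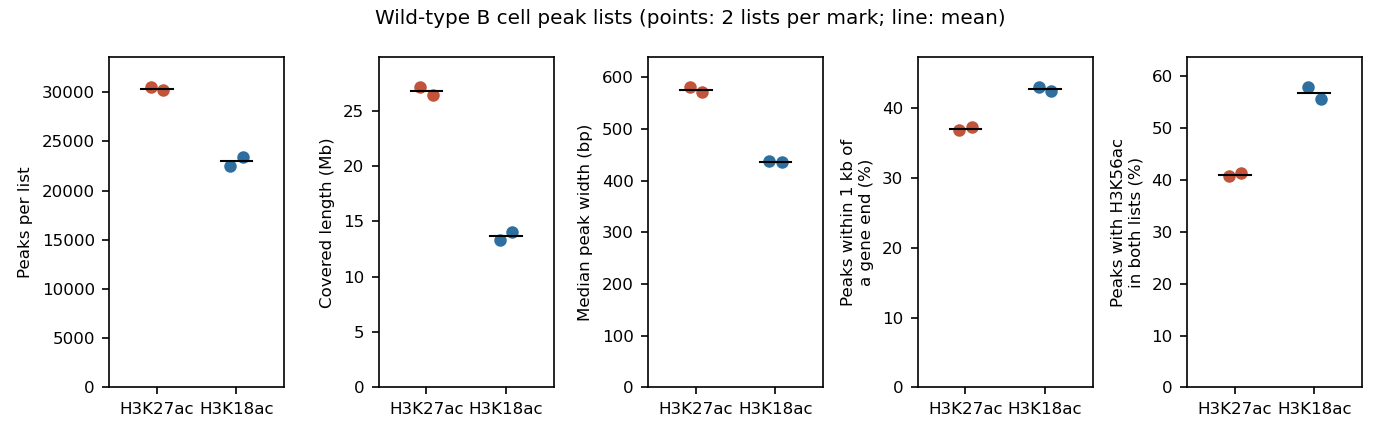
Peak number, covered length (Mb), median width (bp), share of peaks within 1 kb of a gene end (%) and share overlapping both H3K56ac lists (%) for the 2 H3K27ac and 2 H3K18ac lists of wild-type B cells, with points for lists and lines for means of 2. H3K27ac lies above H3K18ac in the first 3 panels, as with 27.1 and 26.4 against 13.3 and 14.0 Mb, and below it in the last 2.

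The excess of H3K27ac was also set beside the same contrast in the Crebbp-/- LPD. There the H3K27ac lists covered 26.2 and 18.2 Mb and the H3K18ac lists 29.5 and 21.4 Mb, which overlapped. The log2 ratio of H3K27ac to H3K18ac in covered length was 0.97 in B cells and -0.20 in LPD. The difference of 1.17 gave p = 0.0556 in an exact two-sided permutation test over 36 arrangements, the smallest it can give. In peak number the log2 ratio was 0.40 in B cells and -0.33 in LPD, and the difference of 0.73 gave p = 0.167 in the same exact test.

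The class counts follow the lengths of the lists and are tied to them. When each list was shortened to its 22485 widest peaks, H3K27ac-only regions fell to 4286 and H3K18ac-only regions rose to 1250, with 12726 shared, and 52.2% of the H3K27ac-only, 94.3% of the H3K18ac-only and 92.7% of the shared regions stayed in their class. When each list was instead shortened to the 13.3 Mb of the shortest, an alternative chosen after seeing the data, only 5680 and 5902 H3K27ac peaks remained against 22485 and 20282 H3K18ac peaks, and the balance turned over to 253 H3K27ac-only and 8661 H3K18ac-only regions. Classes also rest on both lists of a mark. Taking H3K27ac from list 1 or list 2 alone gave 12527 or 12161 H3K27ac-only regions, and taking H3K18ac from list 1 or list 2 alone gave 1549 or 1927 H3K18ac-only regions.

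H3K27ac-only regions were of moderate width and H3K18ac-only regions were narrow, while shared regions were broad. Median width was 503 bp for H3K27ac-only regions (quartiles 368 and 754 bp), 414.5 bp for H3K18ac-only regions (327 and 551 bp) and 1174 bp for shared regions (752 and 1836 bp). In total the classes spanned 5.07, 0.310 and 21.0 Mb. A merged region grows with each peak it joins, so shared regions are wider in part by construction. Among regions of 400 to 800 bp, 37.3% were H3K27ac-only, 3.13% H3K18ac-only and 35.7% shared. Among those of 1600 bp or more, 5.70% were H3K27ac-only and 89.6% shared, and 1 was H3K18ac-only.

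**Figure D2:**
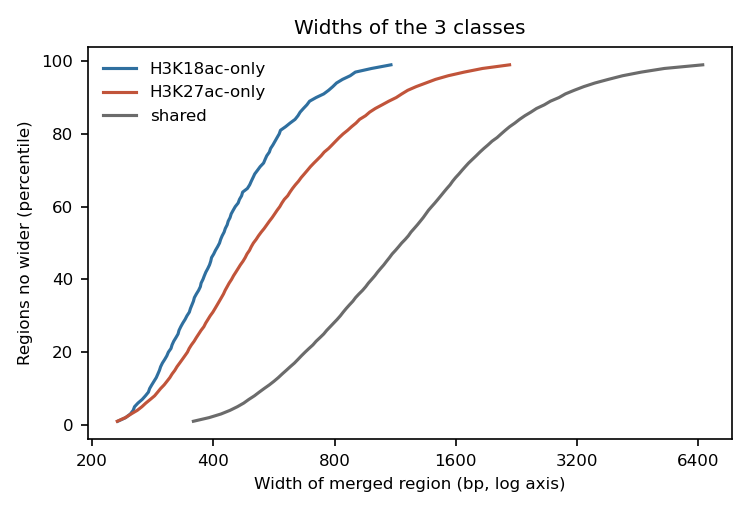
Percentile of regions (vertical axis) no wider than the width on the horizontal log axis (bp), for H3K18ac-only, H3K27ac-only and shared regions. The curves are ordered throughout most of their length, with medians of 414.5, 503 and 1174 bp.

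The single-mark classes lay mostly away from gene ends, and shared regions mostly at them. Of all regions 34.8% were at gene ends, and of those with a mixed pattern 20.7%. Lying mostly away from gene ends was therefore not particular to the single-mark classes. Within 1 kb of a gene end were 1910 H3K27ac-only regions (23.9%, 95% exact binomial interval 22.9 to 24.8%), 151 H3K18ac-only regions (22.6%, 19.5 to 26.0%) and 7334 shared regions (53.4%, 52.6 to 54.3%). These intervals cover counting error only. Restricting to regions of 400 to 800 bp gave 23.3%, 21.8% and 57.4%. Regions that just missed a class lay between these values: those with both H3K27ac lists and 1 H3K18ac list (1629 with list 2 and 1216 with list 1) were at gene ends in 37.4% and 34.6% of cases. Regions with both H3K18ac lists and 1 H3K27ac list numbered 227 and 150, with 29.1% and 24.0% at gene ends.

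The single-mark classes also differed in how they lay relative to genes. Over all regions, the span of a protein-coding gene was overlapped by 71.8% of H3K27ac-only, 48.2% of H3K18ac-only and 73.7% of shared regions. Away from gene ends, where a region does not overlap a gene merely by lying at its start, these shares were 70.6%, 43.9% and 56.5%, so that shared regions came between the single-mark classes. With every annotated gene counted, long noncoding RNAs included, they were 78.0%, 57.6% and 70.1% away from gene ends. Long noncoding RNA genes alone overlapped 10.2%, 18% and 16.8% there. Of the regions away from gene ends, 15.4% of H3K27ac-only, 27.9% of H3K18ac-only and 21.2% of shared regions were farther than 50 kb from any protein-coding gene end. H3K27ac-only regions away from gene ends lay a median 4.35 kb from the nearest shared region and 65.5% were within 10 kb of one, while H3K18ac-only regions lay a median 14.2 kb away with 44.3% within 10 kb. For shared regions the median gap to the next was 5.66 kb, with 60.1% within 10 kb. These shares over regions have no replicate test.

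Marks that did not enter the sorting separated the shared regions from both single-mark classes. A peak of both H3K56ac lists was present in 76.3% of shared regions, 9.02% of H3K27ac-only and 7.34% of H3K18ac-only regions, and in 61.2%, 10.2% and 8.01% of those of 400 to 800 bp. At gene ends the H3K27ac-only regions had H3K56ac in 26.0%, against 3.71% of those away from gene ends. The CBP list, which holds exactly 1000 peaks, touched 778 shared regions (5.67%), 57 H3K27ac-only regions (0.712%) and 4 H3K18ac-only regions (0.599%). Among regions of 400 to 800 bp, the shares with CBP were nearer to each other, at 1.57%, 0.860% and 0.641%. The H3K27ac list of wild-type progenitors, an earlier stage of lymphoid development, had a peak in 68.5% of shared, 15.9% of H3K27ac-only and 13.6% of H3K18ac-only regions. Over all regions, the shares with H3K56ac, CBP and progenitor H3K27ac were 36.6%, 2.64% and 36.6%. In the regions of mixed pattern they were 9.92%, 0.465% and 14.0%. Low shares were therefore not particular to the single-mark classes.

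In the Crebbp-/- LPD lists both single-mark classes were found less often than shared regions. Both LPD H3K27ac lists had a peak in 37.8% of H3K27ac-only and 13.5% of H3K18ac-only regions, and both LPD H3K18ac lists in 32.3% and 41.3%. For H3K27ac-only regions the 2 marks were level away from gene ends, at 30.0% for H3K27ac and 29.4% for H3K18ac, and apart at gene ends, at 62.8% and 41.5%. Single LPD lists overlapped between the marks, with 52.9% and 38.8% of H3K27ac-only regions in the H3K27ac lists and 48.5% and 33.7% in the H3K18ac lists. For shared regions the shares in both lists were 80.4% for H3K27ac and 87.2% for H3K18ac. Over all regions they were 50.7% and 54.7%, and in regions of mixed pattern 26.2% and 32.1%. The 32.3% of H3K27ac-only regions with H3K18ac in LPD was therefore near that of mixed regions and not particular to this class. In numbers, 2583 H3K27ac-only regions had an H3K18ac peak in both LPD lists, among them 793 of the 1910 at gene ends. At gene ends the share was 75.1% of all and 45.8% of mixed regions. The LPD H3K18ac lists were longer than those of B cells (39529 and 35247 peaks), and the part of that length in these counts was not tested.

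**Figure D3:**
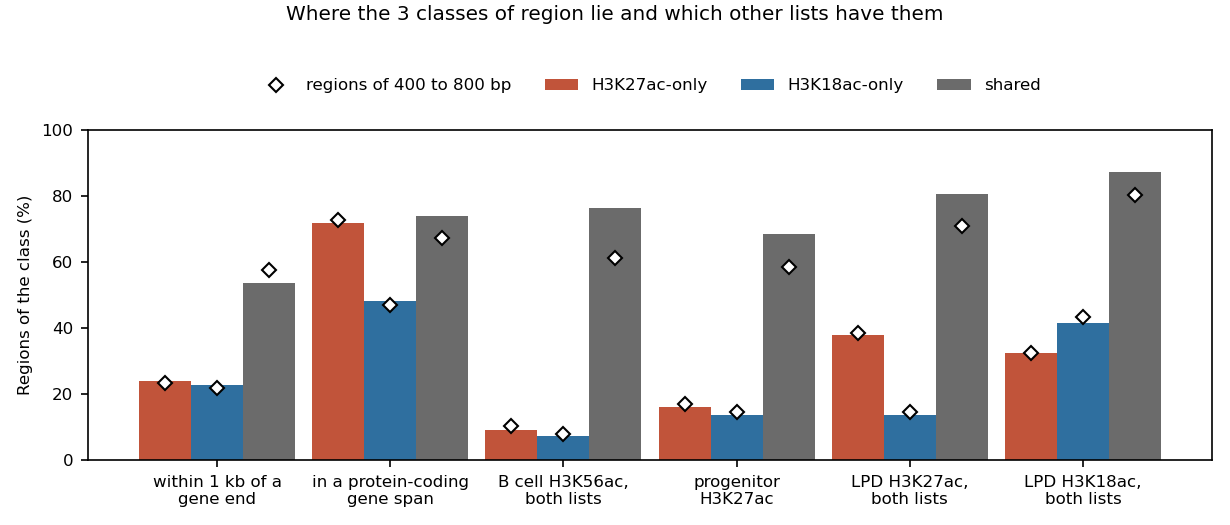
Share of regions (%) of each class that lay at gene ends or in protein-coding genes, and that had peaks of H3K56ac in B cells, H3K27ac in progenitors, or H3K27ac or H3K18ac in Crebbp-/- LPD, with bars for all regions and diamonds for those of 400 to 800 bp. Shared regions stand highest in each set except gene spans at matched width, where H3K27ac-only regions were at 72.6% and shared at 67.3%.

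Within shared regions the called H3K18ac peaks mostly summed to less sequence than the H3K27ac peaks. The H3K27ac peaks in a shared region had a median summed length of 1077 and 1053 bp in the 2 lists, and the H3K18ac peaks 666 and 695 bp. Both H3K27ac lists had more sequence than both H3K18ac lists in 10210 shared regions (74.4%), and the reverse held in 966 (7.04%). The median ratio of H3K18ac to H3K27ac length was 74.3% at gene ends and 67.2% away from them. Over the whole lists, not the shared regions alone, 91.7% and 89.8% of H3K18ac sequence lay in H3K27ac peaks of the list with the same number, but 45.1% and 47.6% of H3K27ac sequence lay in H3K18ac peaks. Of the H3K18ac peaks in these lists, 69.5% and 63.8% lay wholly within H3K27ac peaks. With read depth unknown, a mark that was called less fully and a mark that was narrower cannot be told apart. At the centre of shared regions, H3K27ac peaks were present in 98.1% and 97.7% and H3K18ac peaks in 79.9% and 81.1% of regions, and 1 kb downstream on the chromosome in 32.5% and 32.1% against 17.3% and 18.1%. That centre is the midpoint of the merged region, in which H3K27ac mostly had the more sequence. Of the 9.98 Mb that both H3K27ac lists and neither H3K18ac list covered, 52.1% lay inside shared regions, beside H3K18ac peaks, and 37.1% in H3K27ac-only regions. The reverse, H3K18ac without H3K27ac, came to 0.405 Mb.

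**Figure D4:**
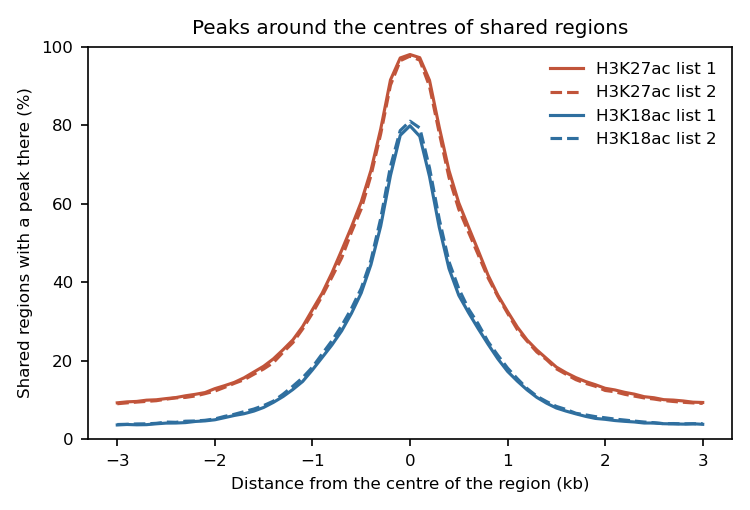
Share of the 13725 shared regions (%) with a peak at each distance (kb) from the centre of the region, for each of the 4 lists. The H3K27ac curves lie above the H3K18ac curves throughout, at 98.1 and 97.7% against 79.9 and 81.1% at the centre.

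By gene, 4013 of 21887 protein-coding genes (18.3%) had an H3K27ac-only region, 520 (2.38%) an H3K18ac-only region and 8916 (40.7%) a shared region. A region was given to every gene whose span, widened by 1 kb, it overlapped. A region outside all such spans went to the closest gene, if that lay no more than 50 kb away. Most genes with a single-mark region also had a shared one, namely 68.4% of those with H3K27ac-only and 67.1% of those with H3K18ac-only regions. In 9040 genes with peaks in all 4 lists, the median H3K18ac length was 63.9% of the H3K27ac length (quartiles 44.7 and 84.2%), and 1074 of these genes (11.9%) had more H3K18ac than H3K27ac. H3K27ac in both lists with no H3K18ac in either was found in 933 genes, and the reverse in 131.

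The genes with the most H3K27ac-only sequence were Ets1 and Foxp1, and Ebf1 and Bach2, also transcription factors of lymphocytes, were among the leading 10. The ranking was not adjusted for gene length, and these genes are long, with spans of 122, 597, 390 and 348 kb. The shortest span of the 10 was 79.0 kb (Dipk1a), beside a median of 17.2 kb for all genes. Ets1, an ETS factor of B and T cells, had 32 such regions with 28.5 kb, and its H3K27ac peaks summed to 73.2 and 74.4 kb against 23.9 and 24.2 kb of H3K18ac. Foxp1, a forkhead factor needed for B cell development, had 39 regions with 27.5 kb, at 111 and 107 kb of H3K27ac against 37.6 and 39.8 kb of H3K18ac. Ebf1, which specifies the B lineage, had 20 regions with 16.9 kb, at 52.5 and 50.9 kb against 13.7 and 16.1 kb. Bach2, a repressor that holds back plasma cell differentiation, had 25 regions with 16.2 kb, at 52.7 and 55.0 kb against 12.8 and 14.1 kb. For all 4 genes both H3K27ac lists lay above both H3K18ac lists, a direction that the ranking favours. H3K27ac-only sequence by rule has no H3K18ac peak, and only 11.9% of genes with peaks in all 4 lists had more H3K18ac.

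The other 6 of the leading 10 were mostly genes for signalling and scaffold proteins. Cyth1, an exchange factor for ARF proteins, had 20.2 kb, Bank1, a B cell scaffold protein, 16.4 kb, Dipk1a 15.5 kb, Rapgef1, an exchange factor for RAP1, 15.4 kb, Add3, a membrane skeleton protein, 15.2 kb and Lrch1 15.1 kb. Add3 had 16.2 and 16.7 kb of H3K27ac against 0.913 and 0.637 kb of H3K18ac. All 10 genes also had at least 1 shared region, and none had an H3K18ac-only region. Ets1, Foxp1, Cyth1 and Bach2 were also among the 10 genes with the most shared sequence.

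Some genes of B cells carried H3K27ac with no H3K18ac peak in either list. Cd79b, a signalling chain of the B cell receptor, had 4.37 and 4.67 kb. Pou2f2, a B cell octamer factor chosen here after its values were seen, had 4.85 and 4.30 kb in all, of which 4.07 and 3.96 kb lay in 8 H3K27ac-only regions. Idh2, a mitochondrial dehydrogenase, was the nearest gene to the second widest H3K27ac-only region (chr7:80142046-80146649, 4.60 kb), which had a CBP peak and lay 23.4 kb from the closest gene end.

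The widest H3K27ac-only region, at chr6:29525859-29530822, covered the start of Irf5 and continued into the gene for 4.96 kb in all. Others of the 5 widest lay inside Cyb561a3 and close to Tmem138 (chr19:10578248-10582789, 4.54 kb), inside Mbnl1, a splicing factor gene (chr3:60535186-60539563, 4.38 kb), and at an end of the sodium channel gene Scn4a (chr11:106315917-106319926, 4.01 kb). The region at Scn4a also lay close to Cd79b, whose span ends at chr11:106314562, but beyond the 1 kb within which regions were given to that gene. All 5 had H3K27ac in both LPD lists, and those at Irf5, Idh2, Cyb561a3 and Mbnl1 also had H3K18ac in both LPD lists.

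H3K18ac-only sequence was far shorter per gene, and no gene had more than 4 such regions. Man1c1, a Golgi mannosidase, had the most, 2.20 kb in 4 regions, with 4.18 and 4.38 kb of H3K18ac against 2.21 and 2.20 kb of H3K27ac. Tbc1d16, a RAB GTPase-activating protein, had 4.35 and 3.60 kb of H3K18ac against 0.995 and 1.08 kb of H3K27ac. Also among the leading 10 were Nid1, Gas7, Begain, Lgr5, Myzap, Foxo6 and Oacyl.

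Genes with an H3K18ac-only region and no region of the other 2 classes numbered 152. They could still have regions of mixed pattern. Those with the most sequence were Gas7, Lgr5 (a WNT co-receptor of epithelial stem cells), Foxo6, Oacyl, Tgfbr3 (a TGF-beta co-receptor), Map3k13, Nostrin, Tmem120b, Metrnl and Zfp365. Gas7 had 3.46 and 3.32 kb of H3K18ac, with 0.510 kb in 1 H3K27ac list and none in the other. Its 4 regions of mixed pattern spanned 2.42 kb, beside 1.95 kb of H3K18ac-only regions. Lgr5, Foxo6 and Metrnl each had 1 region of mixed pattern. Lgr5 had 1.76 and 1.61 kb of H3K18ac against 0.305 kb and none. The other 8 had between 0.446 and 1.37 kb of H3K18ac in a list and no H3K27ac in either.

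The widest H3K18ac-only region, chr17:39843622-39846188 (2.57 kb), overlapped no annotated gene and had a CBP peak. A second H3K18ac-only region close to it, chr17:39848148-39848827, also had a CBP peak and overlapped Rn18s-rs5, annotated as a pseudogene of 18S ribosomal RNA, and the long noncoding RNA AY036118. Together they were 2 of the 4 H3K18ac-only regions with CBP. Neither had a peak of either mark in both LPD lists. Repeated sequence can gather reads from many copies, and its part in these 2 regions was not tested. The next widest were near Nostrin (chr2:69128503-69129744, 1.24 kb), near Ahdc1 (chr4:133085351-133086589, 1.24 kb), just inside Tmem120b (chr5:123076316-123077509, 1.19 kb) and near Srp14 (chr2:118499677-118500808, 1.13 kb), and those near Nostrin, Ahdc1 and Srp14 overlapped long noncoding RNA genes.

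The shared class held the longest acetylated runs of these cells. The widest, chr17:34285282-34310281 (25 kb), ran from H2-Aa to H2-Eb1 in the MHC class II cluster. It was filled by both marks, with 24.8 and 25 kb of H3K27ac and 23.0 and 22.5 kb of H3K18ac. In a region on chromosome 8 (chr8:11094126-11115675, 21.6 kb) with no gene end within 50 kb, H3K18ac filled 14.0 and 15.9 kb against 21.1 and 21.2 kb. Inside Ago2, a core protein of RNA silencing, a region of 19.7 kb had 12.8 and 11.7 kb of H3K18ac. Next came regions at Pebp4 (16.6 kb) and over Plekhg2 and Zfp36 (14.9 kb). These 5 all had H3K56ac and CBP peaks and both marks in both LPD lists.

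Most B cell identity genes carried H3K27ac-only regions beside shared ones. Of 24 B cell identity genes, 20 had an H3K27ac-only region, none an H3K18ac-only region and 22 a shared one, beside 18.3%, 2.38% and 40.7% of all genes. All 24 had a region of some kind, while 10487 of the 21887 genes had none. The shares over all genes are therefore lowered by genes without peaks, here and for the gene lists below. The 22 with peaks in all 4 lists had a median H3K18ac length of 28.6% of H3K27ac, beside 63.9% for all such genes, and the median gene span of the list, 16.3 kb, was near the 17.2 kb of all genes. Bank1 had 26.3 and 24.0 kb of H3K27ac against 2.34 and 3.96 kb of H3K18ac. Ptprc, which encodes CD45 and its B220 form, had 17.8 and 16.1 kb against 3.18 and 3.68 kb. Ms4a1, which encodes CD20, had 5.65 and 5.48 kb against 0.30 and 0.371 kb. Pax5, the factor that maintains B cell identity, had 23.4 and 23.4 kb against 8.15 and 9.11 kb. For each of these genes both H3K27ac lists lay above both H3K18ac lists. Bank1 and Ptprc were named for their H3K27ac-only sequence, which favours that direction.

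Of 18 B cell receptor signalling genes, 17 had an H3K27ac-only, 2 an H3K18ac-only and all 18 a shared region, with a median H3K18ac length of 30.9% of H3K27ac. The shares of these classes over all genes were 18.3%, 2.38% and 40.7%. These genes are long, with a median span of 79.7 kb. Prkcb, a protein kinase C of receptor signalling, had 28.2 and 27.7 kb of H3K27ac against 4.68 and 4.80 kb of H3K18ac, and Plcg2, the phospholipase of the receptor, 13.1 and 13.8 kb against 2.58 and 3.06 kb. Vav2, an exchange factor, had 29.6 and 30.8 kb against 9.71 and 9.94 kb, and Pik3ap1, an adaptor for PI3 kinase, 45.4 and 43.7 kb against 22.5 and 22.6 kb. In early B cell genes, 5 of 14 had an H3K27ac-only and 1 an H3K18ac-only region. Ikzf1, which encodes Ikaros, had 30.5 and 29.3 kb of H3K27ac against 7.38 and 7.59 kb of H3K18ac, and Tcf3, which encodes the E2A proteins, 3.79 and 3.85 kb against 0.386 and 0.393 kb.

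Of 14 marginal zone, follicular and homing genes, 11 had an H3K27ac-only, 3 an H3K18ac-only and 12 a shared region, with a median H3K18ac length of 41.8%. Over all genes the shares were 18.3%, 2.38% and 40.7%. S1pr1, the receptor for leaving lymphoid organs, had 25.2 and 24.0 kb of H3K27ac against 11.0 and 10.1 kb of H3K18ac, and Ccr7, a T zone homing receptor, 25.4 and 24.8 kb against 13.0 and 13.8 kb. Klf2, a factor that controls homing and B cell subsets, went the other way: it had 10.4 and 10.6 kb of H3K18ac against 8.41 and 8.40 kb of H3K27ac, with 3 H3K18ac-only regions. Cxcr5, the follicle homing receptor, had 2 regions of each single-mark class.

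All 15 MHC class II presentation genes had a shared region, 10 an H3K27ac-only and 1 an H3K18ac-only region, and their median H3K18ac length was 48.8%. Among all genes, 40.7%, 18.3% and 2.38% had such regions. The members ranged widely. H2-Aa and H2-Eb1, which share the 25 kb region, were at 90.4 and 85.4%. Ciita, the master activator of the class II genes, was at 18.2%, with 10.2 kb of H3K27ac in each list against 1.41 and 2.29 kb of H3K18ac. Cd74, the invariant chain, was at 49.1%, and the lysosomal proteases Lgmn and Ctss at 25.8 and 28.5%.

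Of 18 NF-kB pathway genes, 12 had an H3K27ac-only, none an H3K18ac-only and all 18 a shared region, with a median of 49.7%. The shares over all genes were 18.3%, 2.38% and 40.7%. Nfkb1, a subunit, had 14.8 and 15.1 kb of H3K27ac against 6.51 and 7.41 kb of H3K18ac, and Tnfaip3, the inhibitor A20, 9.94 and 9.87 kb against 6.42 and 6.49 kb. Of 14 germinal centre and plasma cell genes, 7 had an H3K27ac-only and 12 a shared region, with a median of 51.9%. Irf4 and Irf8, interferon regulatory factors of B cells, had 22.3 and 22.2 kb and 23.8 and 24.2 kb of H3K27ac, against 10.6 and 11.2 kb and 8.16 and 9.63 kb of H3K18ac.

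Immediate early and housekeeping genes had mostly shared regions. Of 20 cAMP-responsive and immediate early genes, 8 had an H3K27ac-only, 3 an H3K18ac-only and all 20 a shared region, with a median of 67.9%. Over all genes the shares were 18.3%, 2.38% and 40.7%. Nr4a1, an orphan nuclear receptor induced by antigen, had 18.7 kb of H3K27ac in each list against 10.1 and 9.36 kb of H3K18ac. Sik1, a kinase induced by CREB, had 12.1 and 11.8 kb against 6.50 and 7.94 kb, with 1 region of each single-mark class. Of 20 housekeeping genes, 6 had an H3K27ac-only, none an H3K18ac-only and 19 a shared region (median 70.6%). Of 20 ribosomal protein genes, 4, none and 19 did (57.0%), and of 20 cell division genes, 4, none and 11 (69.4%). Housekeeping genes ranged from 26.2 to 102%. These medians are descriptions over lists of genes, with no test between lists.

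Crebbp itself had 2 shared regions and no single-mark region, with 1.76 and 1.82 kb of H3K27ac against 0.951 and 1.24 kb of H3K18ac. Ep300, which encodes p300, had 3 shared and 1 H3K27ac-only region, at 3.88 and 4.03 kb against 2.18 and 2.03 kb. Of 21 acetyltransferase and deacetylase genes, 12 had an H3K27ac-only, 2 an H3K18ac-only and 19 a shared region (median 53.3%). Among all genes the shares were 18.3%, 2.38% and 40.7%. Kat2b, which encodes PCAF, had 4.20 and 3.85 kb of H3K27ac against 0.826 and 0.982 kb of H3K18ac. Hdac7, a lymphoid class IIa deacetylase, had 7.40 and 7.64 kb against 2.36 and 1.71 kb. Hdac4, of the same class, had near equal lengths, with 1.34 and 1.48 kb of H3K27ac and 1.18 and 1.59 kb of H3K18ac, which overlapped.

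Genes of other lineages often had no region, with counts of the single-mark classes on either side of the 18.3% and 2.38% of all genes. Of 20 T and NK cell genes, 2 had an H3K27ac-only and 5 a shared region, and 13 had none at all. Lck, a kinase that some B cells also express, had 7.52 and 7.42 kb of H3K27ac against 3.80 and 4.19 kb of H3K18ac. Of 20 myeloid genes, 5 (25%), 1 (5%) and 6 (30%) had a region of the H3K27ac-only, H3K18ac-only and shared class. Of 15 erythroid and megakaryocyte genes none, 1 (Vwf) and 3 did, and of 20 genes of tissues other than blood 1 (Hnf4a, an H3K27ac-only region of 0.432 kb) did.

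**Figure D5:**
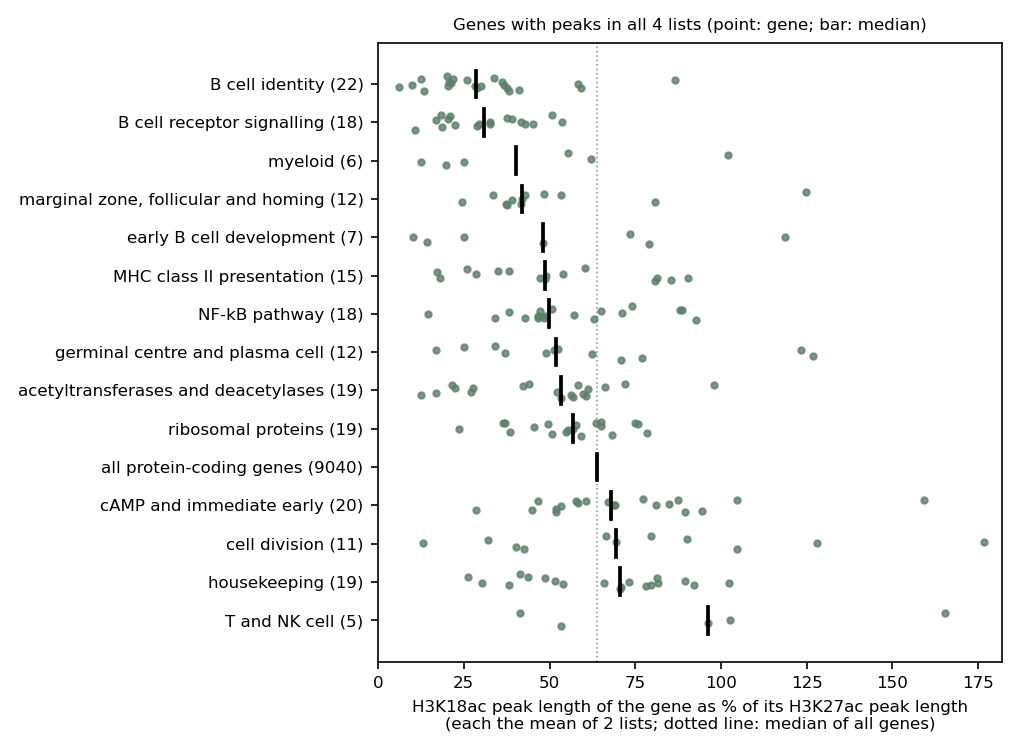
H3K18ac peak length of a gene as a percentage of its H3K27ac peak length (horizontal axis, means of 2 lists each) for genes with peaks in all 4 lists, by gene list with the number of genes, points for genes and bars for medians. B cell identity and B cell receptor genes lie lowest, at medians of 28.6 and 30.9%, beside 63.9% for all genes (dotted line).

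Promoter sequence was compared over 300 bases, 250 before to 50 after the start, for 21263 RefSeq promoters of 17492 protein-coding genes (79.9% of all). Of these promoters 1052 overlapped an H3K27ac-only, 58 an H3K18ac-only and 6596 a shared region. The median CpG count was 19, 22 and 24, beside 5 for the 12406 promoters with no region and 13 for all. Motifs were searched as exact letters on both strands, and none contains another. The CRE letters TGACGTCA, a binding site of CREB, were in 0.856% of H3K27ac-only, 8.62% of H3K18ac-only (5 of 58) and 4.87% of shared promoters, beside 2.23% of all. The ETS letters CCGGAAGT were in 8.94%, 5.17% (3 of 58) and 11.5%, beside 5.15% of all. The GC box GGGCGG was in 66.1%, 70.7% and 68.2%, beside 46.2%, and TATAAA in 6.94%, 5.17% and 5.56%, beside 12.6%. The CCAAT box CCAAT was in 43.1%, 31.0% and 36.4%, beside 38.2%, the E-box CACGTG in 9.03%, 5.17% and 11.7%, beside 7.84%, and the octamer ATGCAAAT in 1.05%, none and 1.35%, beside 1.66%. A match is a description of the sequence and no evidence of binding.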

How the data were processed

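Peaks of histone acetylation were measured by ChIP-seq. The authors' tools, per the submitters' processing notes, were MACS2 2.0.10, Bowtie2 2.1.0, bedtools and Picard, the build was mm10, and the settings are not given in the sources used here. Each deposited file lists peak positions of 1 library, with no score or count, so read depth is unknown and peak number and covered length stand in its place. The input and RNA-seq samples (15) were not analysed here.

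Regions were the merged union of the 4 lists, and a list had a region at 1 bp of overlap. Genes and promoters came from RefSeq GRCm38.p6, with 21887 protein-coding genes, and gene lengths summed a list's peaks in the regions assigned to the gene. Exact permutation tests and all counts were made in Python 3.11.15 (SciPy 1.17.1, pandas 2.3.3, NumPy 2.4.6), with plots by Matplotlib 3.10.9, and the sorting was tested on simulated lists. Alternatives changed the overlap, the joining of peaks, list length, peak width, the gene-end distance and the lists used.

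Beside the printed promoters, the named genes are Crebbp and Ep300, the 10 genes with the most sequence per class, up to 4 members per gene list and single-mark class, genes of the 5 widest regions per class and with CBP, the 10 leading genes with H3K18ac-only regions alone, and cell type markers. Members and lists were chosen with earlier results of these data known. Some named genes are not reported here.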

Additional observations from a re-analysis of the deposited data

Results flagged for a closer look

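The balance of the marks in peak number ran in opposite directions in B cells and in LPD. In wild-type B cells both H3K27ac lists (30523 and 30198 peaks) were longer than both H3K18ac lists (22485 and 23456). In the Crebbp-/- LPD both H3K27ac lists (31924 and 27581 peaks) were shorter than both H3K18ac lists (39529 and 35247). The log2 ratios of 0.40 and -0.33 differed by 0.73, with p = 0.167 in an exact two-sided permutation test over 36 arrangements. That test cannot give less than 0.0556, so no difference of any size could pass a threshold of 0.05. Sorted B220+ cells were compared with unsorted splenocytes, and genotype, disease and sorting cannot be told apart.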

How the results depend on the processing

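The 5 comparisons of lists kept their direction under every alternative for which they were computed. That held when each list was left out in turn, and also for the 2 comparisons with LPD. The 5 were not computed at equal covered length. There the peak number turned over, with 5680 and 5902 H3K27ac against 22485 and 20282 H3K18ac peaks. Equal peak number moved the difference in gene-end share to -0.93 and in H3K56ac to -4.52 percentage points and the log2 ratio of width to 0.81, and peaks of at least 400 bp moved that of peak number to 0.68. A mean of differences within replicate numbers (replicate block) gave the same values, as 0.97 for covered length, with p = 0.5 in an exact sign-flip test, the smallest possible with 2 pairs. Same-numbered lists did not deviate together (r = -0.009 over shared regions), so the numbers were not taken to pair the lists.

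Values that moved are given in the order H3K27ac-only, H3K18ac-only, shared, and the cause was not tested. Joining peaks up to 1 kb apart gave 3523 and 422 single-mark regions, median widths of 774, 554 and 1646 bp and gene-end shares of 26.8% and, for shared, 56.4%. Equal peak number gave 4286 and 1250 regions, widths of 709 and, for shared, 1244 bp and gene-end shares for the latter classes of 27.4% and 54.5%. Peaks of at least 400 bp gave 314 H3K18ac-only and 8515 shared regions, widths of 815, 636 and 1470 bp and shares of 33.9, 29.6 and 56.8%. Equal covered length, added after seeing the data, gave 253, 8661 and 4447 regions. Covered bases came to 9.98, 0.405 and 10.3 Mb. Gene-end shares were 29.6, 28.4 and 56.7% within 2 kb, 20.4, 18.9 and 50.6% within 0.5 kb and 20.2, 17.8 and 47.1% at gene starts. A 200 bp overlap changed nothing, since no peak was narrower.

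Leaving out 1 list gave 9236 to 12527, 827 to 1927 and 14207 to 15388 regions, widths of 345 to 521, 260 to 423 and 1049 to 1093 bp and gene-end shares of 20.5 to 26.2, 18.3 to 24.4 and 51.7 to 52.5%. The files give no depth, so what was too weak to be called cannot be seen.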
